A study of Saccharomyces cerevisiae with 137 samples.

Results

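Aminoacyl-tRNA synthetases join each amino acid to its transfer RNA, and so supply the charged tRNAs that ribosomes read. In budding yeast the cytosol and the mitochondria make protein separately, and most mitochondrial enzymes come from nuclear genes of their own. ALA1 (alanine), GRS1 (glycine), HTS1 (histidine) and VAS1 (valine) are the exceptions among the genes described here, since each encodes both the cytosolic and the mitochondrial enzyme. When an enzyme cannot keep up, uncharged tRNA binds the kinase Gcn2, which lowers general translation and raises translation of the activator Gcn4.

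The list described here holds 30 genes of the 6178 open reading frames measured, chosen by name. Besides the 4 above, the cytosolic enzymes are those for isoleucine (ILS1), leucine (CDC60), phenylalanine (FRS1 and FRS2, the 2 subunits of one enzyme), lysine (KRS1), aspartate (DPS1), asparagine (DED81), glutamine (GLN4), glutamate (GUS1), methionine (MES1), serine (SES1), threonine (THS1), tyrosine (TYS1) and tryptophan (WRS1), 18 genes in all. The mitochondrial enzymes are those for glutamate (MSE1), phenylalanine (MSF1), lysine (MSK1), methionine (MSM1), threonine (MST1), tryptophan (MSW1), tyrosine (MSY1), aspartate (MSD1), isoleucine (ISM1), leucine (NAM2) and serine (DIA4), 11 genes. The remaining listed gene, SLM1, is not a synthetase: it encodes a lipid-binding protein of the plasma membrane that acts with the TORC2 kinase complex. SLM1 was kept in the counts over the list and left out of both classes. The mitochondrial asparagine enzyme is encoded by YCR024C, which was added for the asparagine pair alone.

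Saccharomyces cerevisiae cultures in rich medium (YEPD) were moved from 30 °C to 13 °C and sampled after 15, 30 and 60 min of cold (t15, t30, t60), then returned to 30 °C and sampled after 30 and 60 min of recovery (t90, t120). On every one of the 137 arrays a shifted sample was set against its own flask's t0, collected at 30 °C before the shift and pooled after several amplifications. Wild type was BY4741 in 4 flasks and BY4739 in flask 0, and 25 further flasks held strains without CIN5, GLN3, HAP4, HMO1, SWI4 or ZAP1 (dCIN5 to dZAP1), each the gene of a transcription factor. All deletion strains were of the BY4741 background. The deletion strains grew with 200 µg/mL of the antibiotic G418 and wild type without it, so that deletion and drug cannot be told apart. Wild type was measured in 5 flasks at t30, t90 and t120 and in 4 at t15 and t60. Deletion strains were measured in 4 flasks a time, save for 3 in dHAP4 recovery, and no dSWI4 array of t15 was analysed here. Overnight cultures were started from a single colony, and 2 flasks of a strain were run on the same day, so the printed n may overstate how independent the flasks were.

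The values are the authors' scores: log ratios of shifted sample over t0, divided by the array's own spread (its scaled median absolute deviation, which is 1 unit). They rank genes within an array and are not folds, and a score of 0 lies near the middle of all frames. That the ratio runs as shifted over t0 is taken from the sample titles and is likely, but is stated nowhere in the values. An array measured 5041 to 6158 frames. The 30 genes had values on 108 (DPS1) to 137 arrays, and 10 of them on every array.

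Some arrays stood apart. The dHMO1 arrays of t15 from flasks 3 and 4, labelled in the same dye orientation, correlated at r = −0.476 over all frames, so the direction of dHMO1 scores is not settled. On 4 arrays (flask 2 of dGLN3 at t60, flask 4 of dHAP4 at t90, and flask 3 of dHMO1 at t60 and at t90) the scores resembled the opposite phase of the experiment. They were picked for a negative Spearman rho with their own phase (−0.32 to −0.06) and a positive one with the other (0.12 to 0.62). Arrays that lay nearer the opposite phase without a negative rho with their own are not listed. Wild-type flasks 0 and 1 were hybridised on chips of another source (GCAT) than all other flasks (Ontario). The slides of all 18 dHAP4 arrays and of dSWI4 flasks 2 to 4 carried no PEG coating, and all others were coated, so in dHAP4 deletion and coating cannot be told apart. Dye orientation was the same on all arrays of a flask except dGLN3 flask 3, with the shifted sample in Cy3 at t60 and in Cy5 at t15 and t90.

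**Figure D1:**
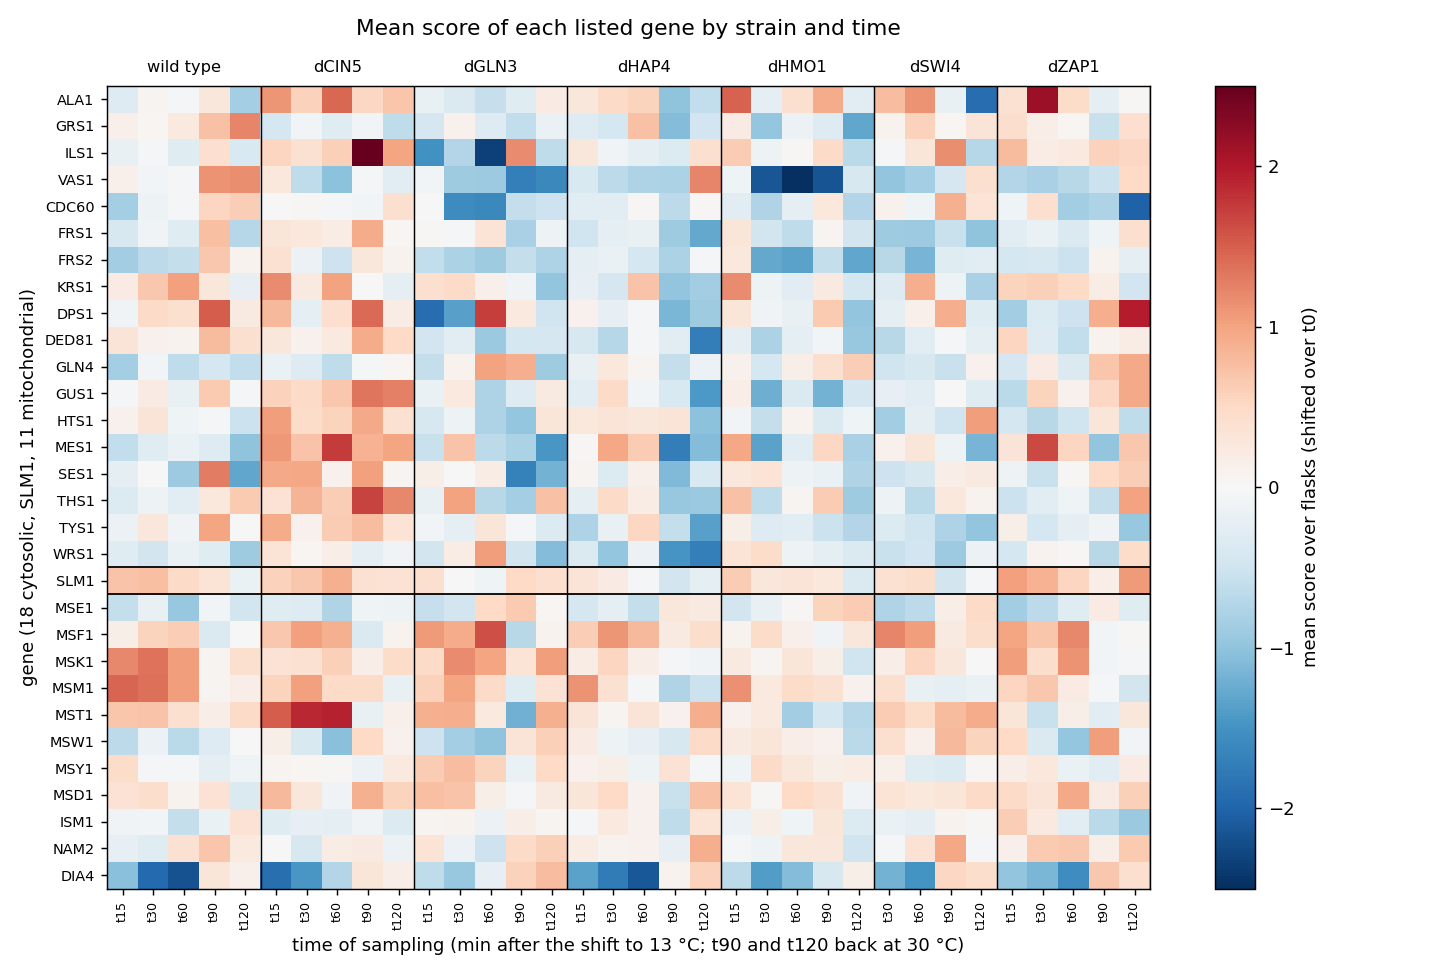
Mean score over flasks for the 30 listed genes (rows: 18 cytosolic, SLM1, 11 mitochondrial) in each strain and time (columns). Red is a mean score above 0, blue below, and colours stop at ±2.5. The DIA4 row is blue through the cold in all strains, while the cytosolic rows show no common colour at 13 °C.

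The first comparison asks how wild-type cells changed synthetase transcripts in the cold. None of the 18 cytosolic genes passed the test at t15, t30 or t60, and the few changes were in mitochondrial enzymes: DIA4 fell, and MSK1 and MSM1 rose. A gene is called here where limma, with flask as a random block, gave a Benjamini-Hochberg adjusted p below 0.05 over all frames. At t15, 2 of the 30 genes were called, both higher, against 10.8% of all frames (7.63% higher). At t30 it was 3 genes (2 higher, 1 lower) against 15.1% (9.42% higher, 5.68% lower), and at t60 it was 2 genes (1 higher, 1 lower) against 15.7% (9.24% higher, 6.5% lower). The share of the list called was therefore no larger than that of all frames at any of these times.

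DIA4 encodes the mitochondrial seryl-tRNA synthetase. In the 5 wild-type flasks at t30 (flasks 0 to 4) its scores were −1.66, −2.66, −2.51, −1.74 and −1.14. At t60 flasks 0 to 3 read −2.39, −2.41, −1.97 and −1.97. All 9 of these arrays were below 0, and those at t60 lay within a narrow band. At t15 the flasks 1 to 4 were spread from −2.33 to 0.03, and DIA4 missed the threshold (estimate −1.06, SE 0.38, adjusted p = 0.07 in limma). The fitted score was −1.94 (SE 0.34, adjusted p = 0.00034 in limma) at t30 and −2.13 (SE 0.38, adjusted p = 0.00035) at t60. On the Ontario chips alone, which leave flasks 2 and 3 at t60, the estimate was −1.88 with an adjusted p of 0.063.

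MSK1, the mitochondrial lysyl-tRNA synthetase, had scores of 0.72, 1.66, 1.61, 0.56 and 2.23 in flasks 0 to 4 at t30. At t60 they were 0.65, 1.17, 1.24 and 1.13 in flasks 0 to 3, and at t15 they were 0.82, 1.48, 1.02 and 1.51 in flasks 1 to 4. Every one of these 13 arrays was above 0. The fitted score was 1.11 at t15 (SE 0.35, adjusted p = 0.042 in limma), 1.35 at t30 (SE 0.32, adjusted p = 0.0047) and 1.16 at t60 (SE 0.35, adjusted p = 0.025). The call at t30 held when any flask was left out. At t15 it was lost without any of flasks 1 to 4 (adjusted p 0.081 to 0.18), and at t60 without flask 1, 2 or 3 (adjusted p 0.088 to 0.1), with estimates of 1.0 to 1.21 throughout. The t60 call was also lost with no replicate block (0.059) and on Ontario chips alone (0.088).

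MSM1, the mitochondrial methionyl-tRNA synthetase, read −0.03, 1.43, 1.77 and 2.63 in flasks 1 to 4 at t15. At t30 it read 0.53, 1.21, 0.59, 2.33 and 2.2 in flasks 0 to 4. The 2 flasks with the shifted sample in Cy3, flasks 3 and 4, were the highest at both times. MSM1 rose by a fitted score of 1.43 at t15 (SE 0.39, adjusted p = 0.019 in limma) and 1.37 at t30 (SE 0.36, adjusted p = 0.0096), and reached 1.12 at t60 (SE 0.39, adjusted p = 0.054). The t15 call was lost without flask 2, 3 or 4 (adjusted p 0.093 to 0.17) and the t30 call without flask 3 or 4 (adjusted p 0.079 and 0.051).

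**Figure D2:**
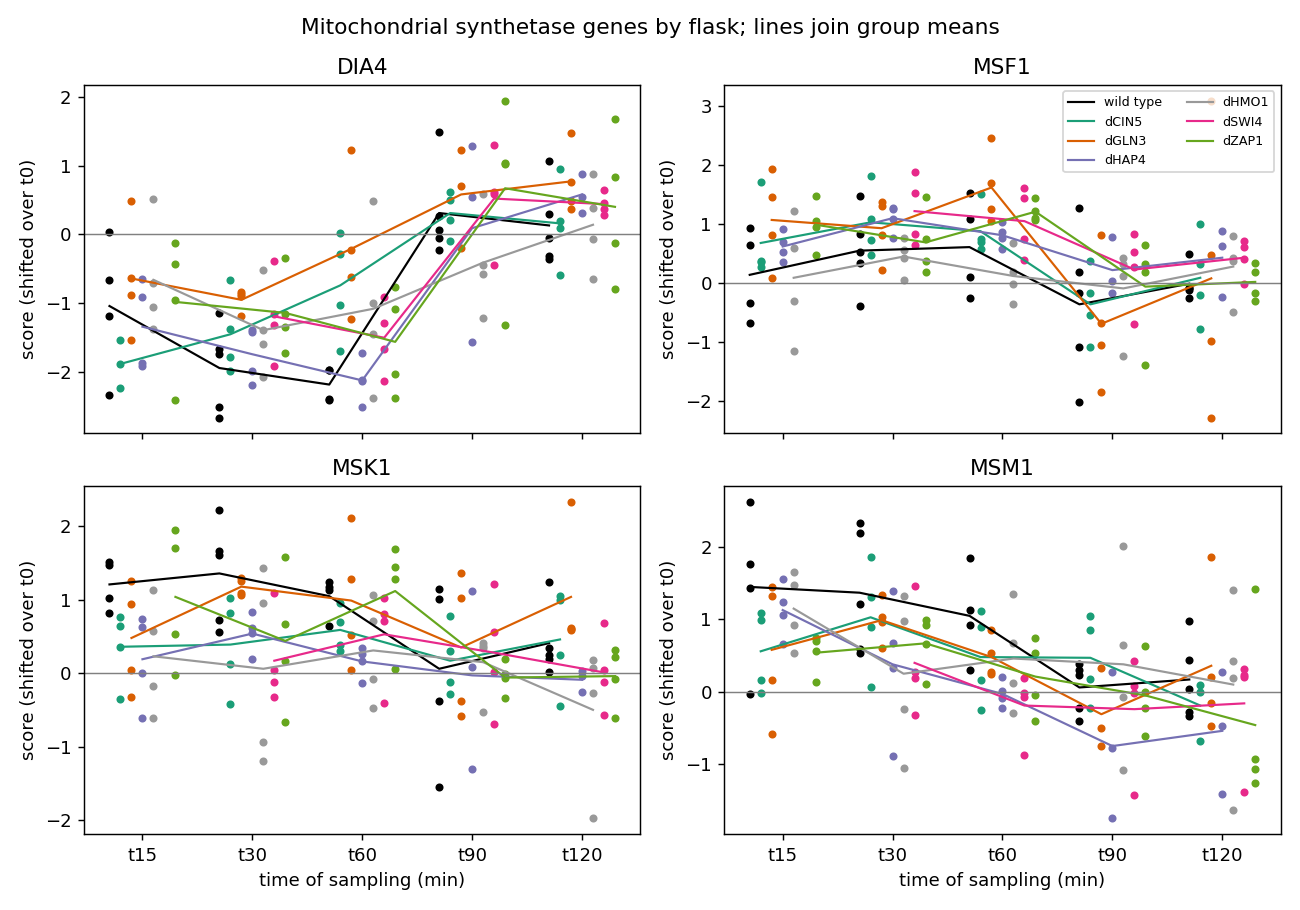
Scores of 4 mitochondrial synthetase genes (vertical axes) against time of sampling (horizontal axes, min). Points are flasks and lines join the means of each strain. DIA4 lies below 0 on 54 of 57 arrays at t30 and t60, and MSF1 above 0 on 53 of 57, with dHMO1, whose direction is not settled, included.

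Of the other 8 mitochondrial genes none passed the test in wild type in the cold. At t60 their estimates ran from −0.93 (MSE1, adjusted p = 0.18) through −0.66 (MSW1) and −0.65 (ISM1) to 0.55 (MSF1, adjusted p = 0.36). The 18 cytosolic estimates at t60 ran from −0.91 (SES1, adjusted p = 0.14) to 0.95 (KRS1, adjusted p = 0.098), with 14 below 0. Their median was −0.18, against 0.06 over all frames. SLM1 was above 0 on all 9 wild-type arrays of t30 and t60, at 0.26 to 1.11, with an adjusted p of 0.11 at t30 and 0.46 at t60.

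On return to 30 °C, 1 of the 18 cytosolic genes was called at t90 and 3 from t60 to t90, all higher. At t90, 14 of the 18 cytosolic estimates were above 0, with a median of 0.6 against 0.01 over all frames, and the mitochondrial median was 0.05. Of the 30 genes 1 was called at t90, the cytosolic aspartyl-tRNA synthetase gene DPS1, against 5.6% of all frames (3.42% higher). DPS1 read 2.15, 2.0, 1.25 and 0.64 in flasks 0, 2, 3 and 4, with no value from flask 1. All 4 were above 0 and the estimate was 1.64 (SE 0.37, adjusted p = 0.0082 in limma). It lost the call without flask 0 (adjusted p = 0.068) or flask 2 (0.066), in the Ontario flasks alone (estimate 1.3, adjusted p = 0.055), and in 1 fit of all strains together, which shares one estimate of the spread (0.066).

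From t60 to t90, 4 of the 30 genes rose and none fell: SES1, DPS1 and FRS1 among the cytosolic genes and DIA4 among the mitochondrial ones. Of all frames 24.5% were called, 11.6% as higher and 12.9% as lower, so that 4 of 30 is below the background share. SES1, the cytosolic seryl-tRNA synthetase, had scores of −1.51, −0.85, −0.6 and −0.67 at t60 in flasks 0 to 3, and of 0.21, 1.93, 1.22 and 1.73 at t90 in flasks 0, 2, 3 and 4. The groups did not overlap, and the difference was 2.16 (SE 0.53, adjusted p = 0.0039 in limma). At t120 SES1 was low again, at −1.2, −1.84, 0.32, −2.56 and −1.23 in flasks 0 to 4 (estimate −1.3, adjusted p = 0.069).

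DIA4 was back near a score of 0 at t90, that is near the middle of all frames. It read 0.06, −0.05, 0.27, −0.22 and 1.49 in flasks 0 to 4. Flasks 0 to 3 lay close together, and flask 4 stood above them. Its difference from t60 was 2.44 (SE 0.45, adjusted p = 0.00027), the largest of the list. FRS1, the beta subunit of cytosolic phenylalanyl-tRNA synthetase, went from −0.19, 0.17, −0.86 and −0.34 at t60 (flasks 0 to 3) to 1.28, 0.2, 0.35, 0.79 and 1.13 at t90 (flasks 0 to 4). The groups did not overlap, but only narrowly, since flask 1 hardly changed (0.17 to 0.2). The FRS1 difference was 1.08 (SE 0.38, adjusted p = 0.039) and that of DPS1 was 1.34 (SE 0.47, adjusted p = 0.037). FRS1 lost the call in 8 refits and kept it in 4, and DPS1 lost it in 7 and kept it in 4. They lost it without flask 0, 2, 3 or 4 (FRS1) and 0, 1, 2 or 3 (DPS1), at adjusted p of 0.054 to 0.17. Both were also lost with no replicate block (0.098 and 0.2), on Ontario chips alone (0.091 and 0.087) and in 1 fit of all strains (0.16 and 0.12), and FRS1 with a dye term (0.052). SES1 and DIA4 were called whichever flask was left out. The partner subunit gene FRS2 was not called at any time in wild type.

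At t120 limma called none of the 30 genes, against 2.69% of all frames. At an unadjusted p below 0.05 there were 7, of which 2 were above 0 and 5 below, against 15.9% of all frames at that threshold.

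**Figure D3:**
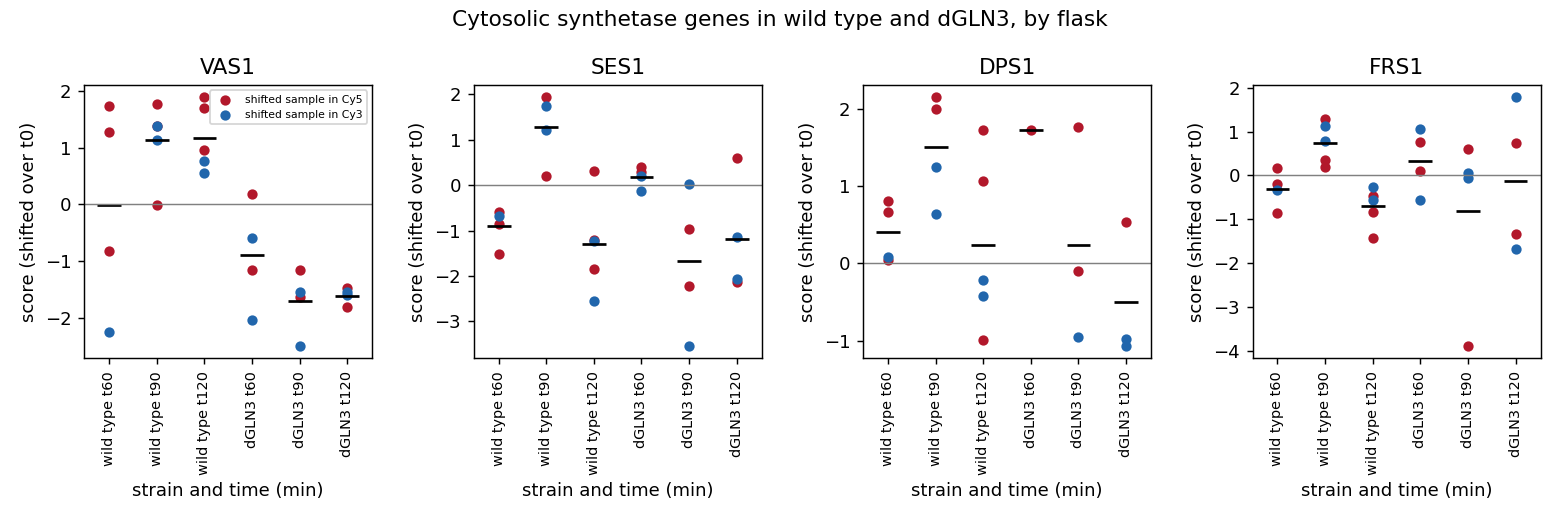
Scores of 4 cytosolic synthetase genes (vertical axes) in wild type and dGLN3 at t60, t90 and t120 (horizontal axes). Points are flasks, coloured by the dye of the shifted sample, and bars are means. In wild type SES1, DPS1 and FRS1 are higher at t90 than at t60, and VAS1 in dGLN3 lies below every wild-type flask at t90 and t120.

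Cytosolic and mitochondrial enzymes were next compared as classes, by the median over each class on an array. In wild type the cytosolic median minus the mitochondrial one was −0.3 ± 0.62 at t15 (SD, n = 4), −0.03 ± 0.78 at t30 (n = 5) and −0.2 ± 0.49 at t60 (n = 4). At t90 it was 0.51 ± 0.49 (n = 5), with 4 of 5 flasks above 0, and at t120 it was −0.14 ± 0.85 (n = 5). At every time but t90 the spread between flasks was larger than the mean. At t90 the cytosolic medians of the 5 flasks were 0.32 to 1.09, all above 0, and the mitochondrial medians were −0.23 to 0.36.

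Compared amino acid by amino acid, 12 cytosolic enzymes could be set against a mitochondrial partner. For serine, SES1 was above DIA4 in every wild-type flask at t30 (1.94 ± 0.99, SD, n = 5), at t60 (1.28 ± 0.29, n = 4) and at t90 (0.87 ± 0.79, n = 4). At t120 the order was the reverse in all 5 flasks (−1.43 ± 0.71). For methionine, MES1 was below MSM1 in all 4 flasks at t15 (−2.07 ± 0.26). At t60 the glutamate pair (GUS1 over MSE1, 0.75 ± 0.47) and the tryptophan pair (WRS1 over MSW1, 0.52 ± 0.34) also had 1 order in all 4 flasks, and the leucine pair had the opposite one (CDC60 under NAM2, −0.4 ± 0.25). At t90 the aspartate pair (DPS1 over MSD1, 1.36 ± 0.96, n = 4) and the tyrosine pair (TYS1 over MSY1, 1.23 ± 1.21, n = 5) did so, and at t120 the isoleucine pair (ILS1 under ISM1, −0.76 ± 0.57, n = 5). Of the 12 pairs, 11 crossed 0 among the flasks at t15, 11 at t30, 8 at t60, 9 at t90 and 10 at t120, asparagine each time. With 4 or 5 flasks 1 order can arise by chance in some of 12 pairs. No share over other pairs of frames was taken, so these orders are descriptions.

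Synthetases fall into 2 structural classes with unrelated catalytic folds, and the list was also split that way. At t90, 13 of the 15 class II genes were above 0 and 7 of the 14 class I genes, with medians of 0.31 and 0.0, against 50.8% of all frames. The 4 genes called from t60 to t90 (FRS1, DPS1, SES1, DIA4) were all class II, and 11.6% of all frames were called higher. Of these calls, FRS1 and DPS1 were lost in 8 and 7 refits and kept in 4 each. Over that interval, however, both classes mostly rose. Above 0 were 11 of 15 class II and 10 of 14 class I estimates (medians 0.67 and 0.45), against 49.1% of all frames. At t60, 8 of 15 class II and 2 of 14 class I genes were above 0, against 53% of all frames. Cytosolic genes, which are in both structural classes, moved together between arrays, so these counts are not of independent observations and do not test the classes.

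The cytosolic median differed widely between arrays. Over all 137 arrays the cytosolic median ran from −2.14 to 2.16 with an SD of 0.86, and the mitochondrial median from −0.98 to 0.72 with an SD of 0.29. The 2.16 is from dHMO1, whose direction is not settled. The cytosolic median was above the mitochondrial one on 59 arrays and below it on 78. In 8 of the 30 flasks the cytosolic median was above 0 on every array and in 6 it was below 0 on every array. The mitochondrial median was above 0 on every array in 8 flasks and below it in 0. All arrays of a flask share its t0 sample, so a shift common to a flask's arrays and a shift of its t0 cannot be told apart.

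The extremes lay in the deletion strains. In dHMO1 the cytosolic median was 1.4 to 2.16 on the 5 arrays of flask 2 (shifted sample in Cy5) and −1.72 to −1.44 on those of flask 4 (Cy3). Since the direction of dHMO1 scores is not settled, the signs of these medians are not settled either. In dHAP4 it was −2.14 to −0.68 in flask 2, where none of the 18 genes had a flask mean above 0, and 0.25 to 0.94 in flask 3, where 17 of 18 did. In dHAP4 flask 2 had the shifted sample in Cy5 and flask 3 in Cy3, so the higher flask was the Cy3 one. In dHMO1, with the signs as given, it was the Cy5 one. In dCIN5 flasks 2 and 3 shared the Cy5 orientation and read −1.38 to 0.12 and −0.02 to 1.81. The part of dye in these shifts was not tested. The mitochondrial medians of the same 6 flasks stayed within −0.24 and 0.5.

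**Figure D4:**
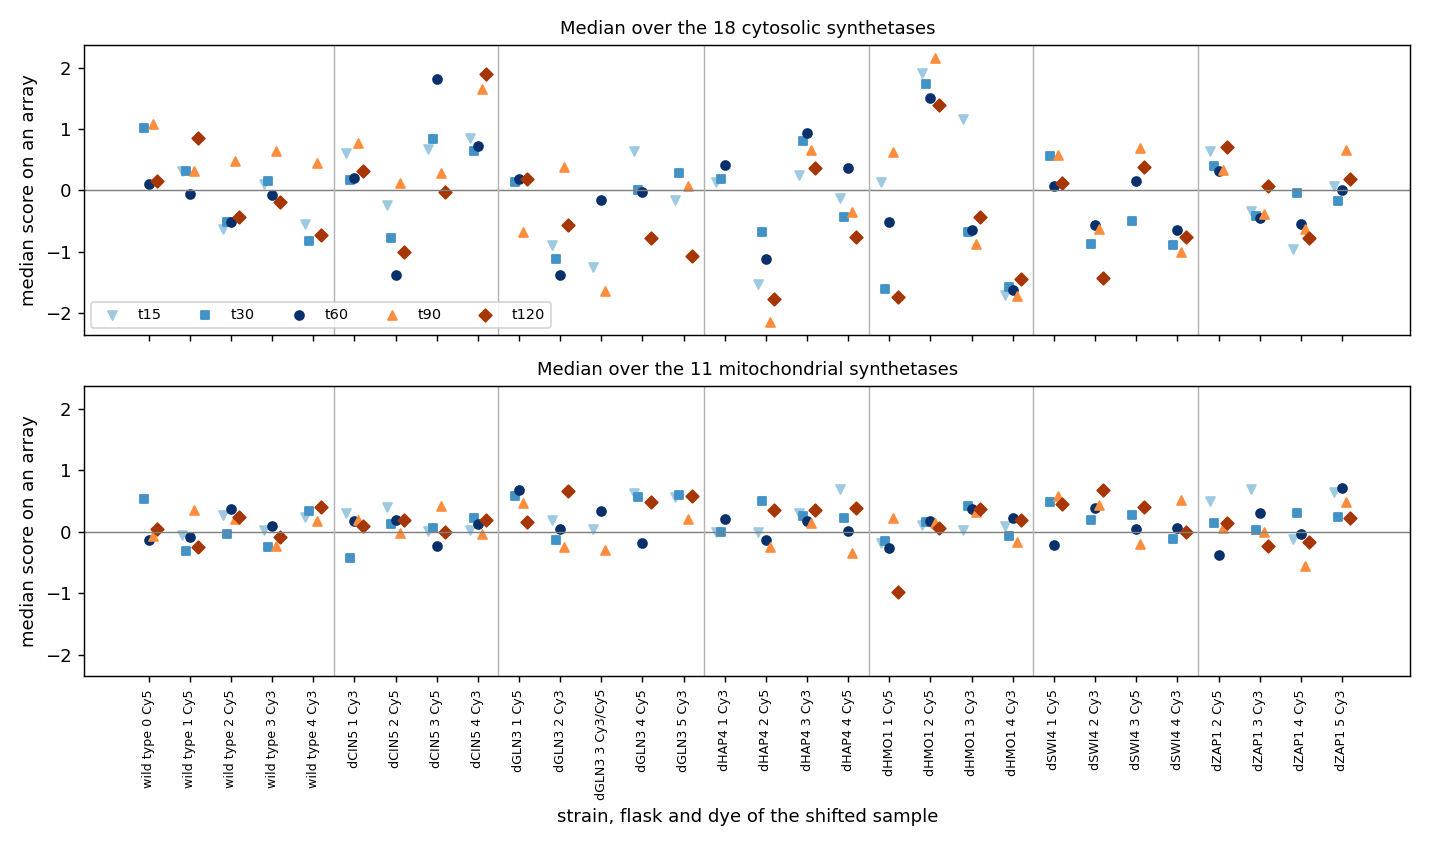
Median score on each array (vertical axes) over the 18 cytosolic genes (top) and the 11 mitochondrial genes (bottom), by strain, flask and dye of the shifted sample (horizontal axis). Symbols mark the time. Cytosolic medians run from −2.14 to 2.16 and mitochondrial medians from −0.98 to 0.72.

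The cytosolic genes also moved together. After removal of each strain and time mean, the median Pearson r over the 153 pairs of cytosolic genes was 0.44, and 94.1% of the pairs were above 0. For the 55 mitochondrial pairs the median was 0.01 with 56.4% above 0, and for pairs of the 1316 frames measured on all 137 arrays it was 0.0 with 50.1% above 0. These correlations are descriptions, since arrays of a flask share t0 and slide type and, outside dGLN3 flask 3, dye orientation. KRS1 and FRS1 (both r = 0.8) and DPS1 (0.79) followed the median of the other cytosolic genes most closely. CDC60 (0.1), GLN4 (0.19) and GRS1 (0.24) followed it least. Among mitochondrial genes the same measure ran from −0.29 (MSE1) to 0.3 (MSD1). The cytosolic synthetase median had r = −0.27 (Spearman rho −0.21) with the median of 130 cytosolic ribosomal protein genes and r = 0.13 with the mitochondrial synthetase median, over 137 arrays.

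Some members differed between flasks of opposite dye orientation. The mean difference between flasks with the shifted sample in Cy5 and in Cy3, within strain and time, was 1.21 for VAS1, 0.73 for GRS1, 0.66 for DPS1 and −0.91 for MST1. The middle 90% of all frames lay between −0.52 and 0.47. The other 26 listed genes lay inside that range. Within a strain and time the 2 orientations are different flasks, so dye and flask cannot be told apart in these differences.

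The second comparison asks whether the 6 deletion strains changed the same transcripts in the cold, taken as the mean of t30 and t60 against t0. The fall of DIA4 and a rise of MSF1, the mitochondrial phenylalanyl-tRNA synthetase, were the calls shared most widely. In dCIN5, 3 of 30 genes were called, with MSF1 and MST1 higher and DIA4 lower, against 15% of all frames (8.91% higher, 6.08% lower). In dGLN3 5 of 29 tested genes were called, with MSF1 and MSK1 higher and CDC60, FRS2 and MSW1 lower, against 19.3% (11.8% higher, 7.48% lower). In dHAP4 the 2 calls were MSF1 higher and DIA4 lower, against 31.4% (17.4% higher, 14% lower). In dSWI4 6 genes were called, with ALA1 and MSF1 higher and FRS1, FRS2, MSE1 and DIA4 lower, against 29.5% (15.8% higher, 13.7% lower). In dZAP1 2 of 29 were called, MSF1 higher and DIA4 lower, against 24.1% (13.3% higher, 10.7% lower). In dHMO1 limma called none, against 0.33% of all frames, and 1 gene had an unadjusted p below 0.05, against 17% of all frames.

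DIA4 was below 0 on 54 of the 57 arrays of t30 and t60 in the 7 strains. The count includes dHMO1, whose direction is not settled, and arrays of a flask share its t0. In dHAP4 flasks 1 to 4 it read −1.98, −1.39, −2.18 and −1.41 at t30 and −2.11, −1.72, −2.51 and −2.13 at t60 (estimate −1.93, SE 0.29, adjusted p = 0.00016 in limma). In dSWI4 it read −1.91, −0.38, −1.31 and −1.15 at t30 and −1.66, −0.91, −2.13 and −1.29 at t60 (−1.34, SE 0.27, adjusted p = 0.001). All arrays of these strains were below 0, and flask 2 of dSWI4 was the least low at both times.

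In dZAP1 flasks 2 to 5 DIA4 read −1.16, −0.34, −1.34 and −1.72 at t30 and −2.38, −0.77, −1.08 and −2.02 at t60 (−1.35, SE 0.37, adjusted p = 0.011). In dCIN5 flasks 1 to 4 it read −0.66, −1.78, −1.38 and −1.98 at t30 and −0.28, −1.69, −1.03 and 0.02 at t60 (−1.1, SE 0.26, adjusted p = 0.0085). The dCIN5 call was lost without flask 3 (adjusted p = 0.081) or flask 4 (0.054). The calls in dHAP4, dSWI4 and dZAP1 held under all 10 refits tried in each.

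In dGLN3 the t30 scores of DIA4 were −0.84, −0.9, −1.19 and −0.87 in flasks 1, 2, 4 and 5. At t60 they were −0.62, 1.23, −1.23 and −0.22 in flasks 1 to 4, where the 1.23 is the array that resembled the recovery phase. The estimate was −0.6 (SE 0.28, adjusted p = 0.14), and DIA4 was called when that array was left out, an alternative chosen after seeing the data. In dHMO1 the estimate was −1.23 (SE 0.37, adjusted p = 0.12), and DIA4 was likewise called there without the 2 dHMO1 arrays that resembled the other phase. The difference of each deletion strain from wild type in the cold was 0.1 to 1.43, with adjusted p of 0.1 (dGLN3) or more.

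MSF1 was above 0 on 46 of the 48 deletion-strain arrays of t30 and t60, dHMO1 included, and on 7 of the 9 wild-type ones. In dHAP4 it read 1.09, 1.27, 0.77 and 1.26 at t30 and 0.57, 0.86, 1.04 and 0.76 at t60 in flasks 1 to 4 (estimate 0.95, SE 0.2, adjusted p = 0.0017 in limma). In dSWI4 it read 1.88, 0.83, 1.52 and 0.65 at t30 and 1.62, 0.39, 1.45 and 0.75 at t60 (1.14, SE 0.27, adjusted p = 0.0032). All arrays of both strains were above 0, and in dSWI4 flasks 1 and 3, which carried the shifted sample in Cy5, were the higher ones.

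The MSF1 estimate was 0.95 in dZAP1 (SE 0.26, adjusted p = 0.011), 0.95 in dCIN5 (SE 0.3, adjusted p = 0.037), 1.23 in dGLN3 (SE 0.43, adjusted p = 0.048) and 0.28 in dHMO1 (SE 0.29, adjusted p = 0.66). The call was lost in dCIN5 without flask 1, 3 or 4 (adjusted p 0.1 to 0.19), in dGLN3 without flask 1, 3 or 4 (0.11 to 0.19) and in dZAP1 without flask 5 (0.11). In wild type MSF1 stood at 0.55 at t30 and at t60 and was not called. None of the 6 strains differed from wild type in MSF1 (adjusted p 0.71 to 0.95), so the calls in 5 deletion strains and none in wild type do not show a difference between them.

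The remaining calls in the cold were each made in 1 or 2 strains. CDC60, the cytosolic leucyl-tRNA synthetase, fell in dGLN3 (−1.57, SE 0.4, adjusted p = 0.011 in limma) and lost the call without flask 1 (−1.14, adjusted p = 0.093). MSK1 rose in dGLN3 as in wild type (1.07, SE 0.3, adjusted p = 0.017), but not without flask 1, 3 or 4 (adjusted p 0.052 to 0.09). MSW1, the mitochondrial tryptophan enzyme, fell there (−0.94, SE 0.27, adjusted p = 0.022), and lost the call without flask 3, 4 or 5 (0.079 to 0.17).

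Of the 2 phenylalanine subunits, FRS2 fell in dGLN3 (−0.83, SE 0.23, adjusted p = 0.018) and both fell in dSWI4 (FRS1 −0.89, SE 0.31, adjusted p = 0.033; FRS2 −0.93, SE 0.28, adjusted p = 0.017). In dSWI4 FRS1 read −0.09, −1.11, −0.95 and −1.39 at t30 and −0.05, −1.24, −0.77 and −1.55 at t60, so flask 1 stayed near 0 and the other flasks were low. Flask 1 is the only dSWI4 flask on coated slides, and without it, on uncoated slides alone, FRS1 was at −1.17 (adjusted p = 0.023). In dSWI4 the FRS1 call was lost without flask 2, 3 or 4 (adjusted p 0.075 to 0.15) and the FRS2 call without flask 1 or 2 (0.1 and 0.072). In 1 fit of all strains both were lost (0.1 and 0.064). In dGLN3 FRS2 lost it without flask 2, 3 or 4 (0.051 to 0.098) and in that fit (0.097).

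ALA1 rose in dSWI4 in the cold (0.95, SE 0.33, adjusted p = 0.036) and was lower there in recovery (−1.04, SE 0.33, adjusted p = 0.039). The cold call was lost without flask 1, 2 or 4 (adjusted p 0.051 to 0.16) and the recovery call without flask 2, 3 or 4 (0.12 to 0.28). In 1 fit of all strains neither was called (0.25 and 0.3). MSE1 fell in dSWI4 (−0.71, SE 0.24, adjusted p = 0.029) but lost the call without any of the 4 flasks (−0.79 to −0.65) and in that fit (adjusted p = 0.098). MST1, the mitochondrial threonyl-tRNA synthetase, rose in dCIN5 (1.9, SE 0.51, adjusted p = 0.02). There it read 3.18, −0.42, 1.16 and 3.63 at t30 and 4.31, 0.05, 1.52 and 1.78 at t60 in flasks 1 to 4. The Cy3 flasks 1 and 4 were the highest at both times, and the call was lost without flask 1, 3 or 4 (1.29 to 2.09, adjusted p 0.091 to 0.14).

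In recovery, taken as the mean of t90 and t120, few genes were called. In dCIN5 ILS1 (1.86, SE 0.46, adjusted p = 0.027 in limma) and THS1 (1.44, SE 0.37, adjusted p = 0.031), the cytosolic isoleucine and threonine enzymes, were higher, 2 of 30 genes against 4.36% of all frames (2.38% higher). In dGLN3 VAS1 and SES1 were lower, 2 of 29 against 4.05% (2.01% lower). In dSWI4 ALA1 was lower, 1 of 30 against 14.7% (7.67% higher, 7.02% lower). In dHAP4, dHMO1 and dZAP1 none was called, against 2.27%, 0.033% and 6.19%, and at an unadjusted p below 0.05 there were 6, 0 and 2 genes, against 13.9%, 4.87% and 18.5% of all frames at that threshold. The 6 of 29 in dHAP4 were all lower, against 6.4% of all frames, and at an adjusted p below 0.05 the share lower was 0 of 29 against 0.598%. The dCIN5 calls were both lost without flask 1, 3 or 4, at adjusted p of 0.071 to 0.25, and THS1 also in 1 fit of all strains (0.11).

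The third comparison sets each deletion strain against wild type. VAS1 in dGLN3 during recovery was the only call among the 30 genes over the 12 comparisons. In that comparison 0.798% of all frames were called, and 0.499% of all frames were called lower. VAS1, whose enzyme charges valine tRNAs of both compartments, read −1.15, −1.54, −1.64 and −2.5 at t90 in dGLN3 flasks 1, 2, 3 and 5, and −1.81, −1.55, −1.48 and −1.6 at t120 in flasks 1, 2, 4 and 5. Wild-type flasks 0 to 4 read 1.78, 1.38, −0.01, 1.38 and 1.14 at t90 and 0.96, 1.7, 1.89, 0.56 and 0.76 at t120. The groups did not overlap at either time, and the 8 dGLN3 arrays were all below 0.

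The difference was −2.78 (SE 0.56, adjusted p = 0.0086 in limma). VAS1 is the listed gene with the largest difference between dye orientations, and the dGLN3 flasks lay below the wild-type flasks within either dye. With a term for dye the difference was −2.72 (adjusted p = 0.0044), and on Ontario chips alone −2.59 (adjusted p = 0.017). The call was lost without dGLN3 flask 5 (−2.64, adjusted p = 0.052) and in 1 fit of all strains (−2.78, adjusted p = 0.22). VAS1 in dGLN3 alone was at −1.64 against t0 (SE 0.33, adjusted p = 0.008), a call lost without flask 4 (−1.66, 0.061) or flask 5 (−1.51, 0.076) and in 1 fit of all strains (−1.62, 0.19). In wild type alone it was not called at t90 (1.13, adjusted p = 0.23) or t120 (1.18, adjusted p = 0.26).

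In the cold the VAS1 difference of dGLN3 from wild type was −0.76 (SE 0.57, adjusted p = 0.68). Wild-type scores of VAS1 in the cold were 1.11 to 2.79 in the GCAT flasks 0 and 1 and −2.25 to 0.18 in the Ontario flasks 2 to 4. Flasks 0 and 1 both carried the shifted sample in Cy5, as did Ontario flask 2 (−0.82 to −0.26), and flask 0 is BY4739, so chip, flask and, in part, dye and strain cannot be told apart. In dHMO1 VAS1 ran from −7.54 (t30, flask 4) to 6.93 (t120, flask 2), the widest range of any strain. SES1 in dGLN3 recovery read −0.97, 0.02, −2.21 and −3.54 at t90 and 0.6, −1.14, −2.13 and −2.07 at t120, so flask 1 was mixed and the others mostly low. The fitted SES1 score was below 0 (−1.45, SE 0.36, adjusted p = 0.029 in limma), with the call lost without flask 3, 4 or 5 (adjusted p 0.079 to 0.19).

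Of the 17 cytosolic genes tested in dGLN3 recovery against wild type, 15 were lower and the median difference was −0.56, while 8 of 11 mitochondrial genes were higher, with a median of 0.11. The median over all frames was −0.04, with 47.6% of frames above 0. Cytosolic genes moved together between arrays, so these counts are not of independent observations. By array the cytosolic medians of the 2 strains overlapped. At t90 they were −1.64 to 0.39 in dGLN3 and 0.32 to 1.09 in wild type. At t120 they were −1.07 to 0.18 and −0.73 to 0.86. In dHAP4 recovery 16 of 18 cytosolic genes were lower than in wild type, and none was called. Their median was −0.9, against −0.03 over all frames, of which 47.7% were above 0. In dHAP4 the flasks were not alike, with flask 2 low and flask 3 above 0 throughout, and both comparisons use the same wild-type arrays. The dHAP4 slides were uncoated and the wild-type slides coated, so deletion, drug and coating cannot be told apart there.

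In the other 11 comparisons with wild type none of the 30 genes was called. Over all frames the called shares in the cold were 0% for dCIN5, 0.348% for dGLN3, 0.201% for dHAP4, 0.0496% for dHMO1, 0.148% for dSWI4 and 0.0818% for dZAP1. In recovery they were 0.0649% for dCIN5, 0.0342% for dHAP4, 0.099% for dHMO1, 1.21% for dSWI4 and 0.296% for dZAP1. At an unadjusted p below 0.05 there were 0 to 7 genes, against 6.87% to 12.6% of all frames at that threshold. The most were in dHAP4 recovery, 7 of 29, all lower, against 4.66% of all frames. DPS1 could not be tested in dGLN3 in the cold or in dZAP1, ILS1 in dGLN3 recovery and ISM1 in dHAP4 recovery, since fewer than 2 flasks had values at a time.

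Other genes of the tRNA pathway were read from lists set beside the synthetases. The lists were chosen with earlier results of these data known, so their counts are descriptions and not tests. Of 20 genes for tRNA maturation and export, 3 rose in wild type at t15, 2 at t30 and 4 at t60, and none fell, where 7.63%, 9.42% and 9.24% of all frames were called higher. At t60 these were TRL1, the tRNA ligase (1.53, SE 0.44, adjusted p = 0.017 in limma), SEN15, a subunit of the splicing endonuclease (1.16, SE 0.38, adjusted p = 0.039), TRZ1, the 3′ end nuclease (1.14, SE 0.38, adjusted p = 0.039), and CCA1, which adds the terminal CCA (1.04, SE 0.36, adjusted p = 0.048). From t60 to t90, 6 of the 20 fell and 1 rose, TRL1, TRZ1 and SEN15 among the 6, against 12.9% of all frames called lower and 11.6% higher.

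Of 9 mitochondrial translation factors, RRF1, the ribosome recycling factor, rose at t60 (1.26, SE 0.37, adjusted p = 0.019), and MRF1, a release factor, fell at t30 (−1.33, SE 0.36, adjusted p = 0.012). At t60, 1 of the 9 was called higher and 0 lower, against 9.24% and 6.5% of all frames. At t30, 1 was called higher and 1 lower, against 9.42% and 5.68%. MRF1 also fell in the cold in dCIN5, dGLN3, dHAP4, dSWI4 and dZAP1 (−1.46 to −1.08), where 6.08% to 14% of all frames were called lower. Of 5 genes that sense uncharged tRNA, GCN20, a partner of Gcn1 in activating Gcn2, rose at t60 (1.54, SE 0.47, adjusted p = 0.025), and GCN2 and GCN4 were not called in wild type. That is 1 of 5 higher at t60, against 9.24% of all frames. Of 10 RNA polymerase III factors TFC8 fell at t60 (−1.25, SE 0.38, adjusted p = 0.025), 1 of 10 against 6.5% of all frames called lower. None of 10 further synthetase genes and partners was called in wild type at any time. In the cold 2 of them were higher in dHAP4, against 17.4% of all frames. In dSWI4 cold 2 were higher and 2 lower, against 15.8% and 13.7%. YCR024C, the mitochondrial asparagine enzyme, was not called in wild type and fell in the cold in dCIN5 (−0.64, adjusted p = 0.044) and dZAP1 (−0.68, adjusted p = 0.0098). Of all frames 6.08% and 10.7% were called lower there.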

How the data were processed

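Two-colour arrays of 30 yeast flasks were used. The deposited values are 1 score per frame and array, which the authors made with limma per the submitters' processing notes (version not given in the sources used here). From the values, each array has a scaled median absolute deviation of 0.997 to 1.003 and a median of −0.051 to 0.085. Log base, background correction, normalization and spot filters are not given in the sources used here. The plan took the values for log ratios of known base, so no folds are printed. Of all values 3.95% were missing. All 137 columns were mapped to samples.

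Frames were fitted in limma 3.58.1 (R 4.3.3), per strain or strain with wild type, with 1 mean per strain and time, flask as random block (correlation 0.11 to 0.4), empirical Bayes moderation and Benjamini-Hochberg adjustment over all frames with at least 2 flasks per time. A call is an adjusted p below 0.05. Tested on simulated data, the fit found most of the larger set changes and few of the smaller ones. Medians, counts and figures used Python 3.11.15, numpy 2.4.6, pandas 2.3.3 and matplotlib 3.10.9.

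Members and lists were chosen with earlier results of these data known. Values in every flask are given for called members with the smallest adjusted p, at most 8 at t60 and t90, 4 newly called at other times and 3 per deletion comparison. Other genes of the pathway are named by up to 3 called per list at t60. The fourth tRNA maturation gene, YCR024C as asparagine partner in place of SLM1, MRF1 and the remaining called members were named after their values were seen. Classes and amino acids are textbook knowledge. Names matched the RefSeq gene table by locus tag. The files name no build, so no coordinates are given, and promoter and protein sequences were not used here. The number of arrays limits the precision. The alternatives were no replicate block, a dye term, centred arrays, frames on every array, robust moderation, Ontario chips only, each flask left out, 1 fit of all strains, arrays resembling the other phase left out, and dHMO1 flask 2 or 4 turned.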

Additional observations from a re-analysis of the deposited data

Results flagged for a closer look

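In wild type at t90, DIA4 in flask 4 read 1.49, far from the other 4 flasks, which lay between −0.22 and 0.27. In dSWI4 at t30, MSE1 in flask 2 read −0.2, apart from the other 3 flasks, at −0.97 to −0.92. The median over the mitochondrial genes was −0.23 in dCIN5 flask 3 at t60 and −0.13 in dGLN3 flask 2 at t30, each apart from the other flasks of its group. These are 4 of 126 groups of samples examined, and chance alone flags about 1 in 20 groups.

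VAS1 responded differently in dGLN3 and wild type during recovery, at a difference of −2.78 (adjusted p = 0.0086 in limma with flask as block), lower in all 8 dGLN3 arrays than in every wild-type array of the same time. The adjusted p was 0.052 without dGLN3 flask 5 and 0.22 in 1 fit of all strains, so the call was lost in both. All dGLN3 flasks grew with the antibiotic and no wild-type flask did, so deletion and drug cannot be told apart in this difference. Whether the sampling days move with this difference was not tested.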

How the results depend on the processing

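Over 393 refits of the 36 member calls, 301 kept the call, 92 lost it and 0 changed direction. The number of the 30 genes called moved by over 1.5 times, or to or from 0, as follows; the cause was not tested. With no replicate block it went from 2 to 1 (wild type t60), 0 to 1 (t120), 4 to 2 (t90 minus t60), 3 to 5 (dCIN5 cold), 0 to 1 (dHMO1 cold), 1 to 2 (dSWI4 recovery), 2 to 4 (dZAP1 cold) and 0 to 1 (dGLN3 minus wild type, cold). With only frames on every array, which tests fewer genes, it went to 1 (wild type t15, t60; dCIN5 cold and recovery), 0 (t90) and 2 (t90 minus t60). On Ontario chips, with fewer flasks, it was 0 at t60 and t90. With a dye term it was 1 in dHAP4 recovery and in dHMO1 cold and 4 in dSWI4 recovery. In 1 fit of all strains it was 0 (wild type t90; dSWI4 recovery; dGLN3 minus wild type, recovery, where VAS1 had an adjusted p of 0.22), 1 (dCIN5 and dGLN3 recovery), 2 (dSWI4 cold) and 3 (dHMO1 cold). Without the arrays resembling the other phase, chosen after seeing the data, dHMO1 cold had 1 and dGLN3 cold 6. With dHMO1 flask 2 turned, dHMO1 minus wild type had 2 in the cold (KRS1, MSK1) and 5 in recovery (VAS1, FRS1, FRS2, DPS1, TYS1); with flask 4 turned it had 0.

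Leaving out 1 flask gave 0 to 2 calls in wild type at t15, 2 to 3 at t30, 1 to 3 at t60, 0 to 1 at t90 and t120 and 2 to 3 for t90 minus t60. It gave 0 to 8 in dCIN5 cold and 0 to 4 in recovery, 1 to 6 and 0 to 2 in dGLN3, 2 to 3 and 0 to 1 in dHAP4, 0 and 0 in dHMO1, 2 to 4 and 0 to 3 in dSWI4, and 1 to 3 and 0 to 1 in dZAP1. Against wild type it gave 0 to 1 in dCIN5, dGLN3, dHAP4 and dHMO1 recovery and 0 elsewhere. The class difference ranged from −0.53 to −0.11 at t15, −0.19 to 0.26 at t30, −0.34 to 0.03 at t60, 0.35 to 0.65 at t90 and −0.45 to 0.11 at t120. Counting SLM1 as mitochondrial moved no class difference beyond the spread between flasks.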

Other observations

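The frames whose scores followed the cytosolic synthetase median most closely over the arrays were ranked after the pattern of flask shifts had been seen, so the ranking is a description with no test. Each of the 18 cytosolic genes is itself part of that median. Among 6031 ranked frames the closest was SSC1, the mitochondrial Hsp70 chaperone (r = 0.85, 136 arrays), ahead of KRS1 and FRS1 (both 0.84). Next outside the list came the cytosolic chaperones SSE1 (r = 0.83) and SSA2 (0.82), the ATP synthase subunit ATP2 (0.81), the poly(A)-binding protein PAB1 (0.8) and SSA1 (0.8). Genes of glycolysis and fermentation (PGI1 0.78, PDC5 0.78, HXK2 0.76, PDC1 0.75), elongation factor 2 (EFT2, 0.78) and the chaperonin subunits CCT5 (0.77) and TCP1 (0.73) were also among the first 40.

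Synthetase genes that are not on the list differed in how they followed the same median. Higher were the arginine enzyme YDR341C (r = 0.66), the cysteine enzyme CRS1 (0.62) and YHR020W, the proline enzyme (0.61), as well as ARC1, a cofactor of the methionine and glutamate enzymes (0.52). The mitochondrial arginine enzyme MSR1 (0.15), the mitochondrial proline enzyme AIM10 (−0.31) and the subunits of the mitochondrial amidotransferase PET112 (−0.34) and GTF1 (−0.36) were lower. GRS2, a second glycine enzyme gene, was at −0.02 and HER2, another amidotransferase subunit, at −0.05. GCN20 was at 0.68, GCN4 at 0.13 and GCN2 at −0.08. The arrays of a flask share its t0 sample, its day and, outside dGLN3 flask 3, its dye orientation, whose part in these correlations was not tested.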
